A study of Mus musculus with 9 samples.

Results

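The 7 ligands of the epidermal growth factor (EGF) family (Areg, Ereg, Hbegf, Tgfa, Btc, Epgn and Egf) and 3 of the ErbB receptors (Egfr, Erbb2 and Erbb3) were followed in the colon of 9 male mice of the outbred ICR strain. Their rows were taken by gene symbol, and all 10 were found among the 21498 symbols of the table. The fourth receptor, Erbb4, and the neuregulins are described among the other genes of the pathway. There were 3 mice in each of 3 groups, called here by their labels. The Control mice received neither tumour induction nor antibody, and their tissue is labelled normal colorectal mucosa. The IgG mice (AOM/DSS + IgG Ab) received 10 mg/kg of azoxymethane (AOM), a carcinogen that acts on the colon, once. From 1 week later they drank dextran sulfate sodium (DSS), which damages the lining of the colon, in 3 cycles, at 2% for 7 days in the first and at 1.5% for 5 days in the others. During these cycles they were given 1.5 mg/kg of a control IgG by vein every 2 days. The anti-A9 mice (AOM/DSS + anti-S100a9 Ab) had the same AOM and DSS schedule and the same dose of a rabbit polyclonal antibody that neutralizes S100a9, an inflammatory protein of myeloid cells. All mice were 5 weeks old at the start and were killed at the end of week 18. Both the IgG and the anti-A9 tissue are labelled colorectal adenocarcinoma, whereas the study's text describes the anti-A9 tissue as mucosa. Tissue kind and treatment therefore cannot be told apart between Control and the other groups, nor, if the text holds, between anti-A9 and IgG.

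EGF family ligands are made as precursors that span the cell membrane and are released by proteases of the ADAM family. The released ligand brings ErbB receptors together in pairs, and the paired receptors signal through RAS and ERK and through PI3K and AKT. In the colon this system is known for driving the division of epithelial cells and the healing of injured epithelium. EGFR binds all of the ligands studied here, ERBB2 has no known ligand and serves as a partner, and ERBB3 has little kinase activity of its own and couples strongly to PI3K.

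In the IgG samples, 3 ligands rose above Control, Ereg 3.34-fold, Tgfa 2.92-fold and Btc 2.64-fold, and Areg lay 2.78-fold above Control without passing the test. Of all genes, 8.18% passed and were higher in this comparison. When single samples were omitted, the calls of Ereg and Tgfa each held 6 of 9 times and that of Btc 4 of 9. None of the 3 passed when only the 2 groups were fitted. In the anti-A9 samples, Areg fell against IgG, to 0.385 of its level there, and Erbb3 rose 1.77-fold. Those 2 of 10 members are near the 21.1% of all genes that passed in that comparison. With each sample left out in turn, the Areg call held 1 of 9 times and the Erbb3 call 4 of 9. Hbegf, Epgn, Egf, Egfr and Erbb2 did not pass in any comparison, and no ligand or receptor passed the test between anti-A9 and Control. Levels are FPKM (fragments scaled to the length of the transcript and to the size of the library), and fold changes are on the log2(FPKM + 0.1) scale, which understates changes of low genes. A gene passed the test where its adjusted p from limma, fitted to the 15278 genes that reached 0.1 FPKM in 3 or more samples, was under 0.05. All 10 members were among the genes tested, and none of their values was 0. As whole tissue was sequenced, fewer cells of a type and less RNA per cell cannot be told apart in any of these results. The p-values measure the spread between the mice, and nothing is stated on batches.

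Of the ligand genes, 4 lie next to each other on chromosome 5 of GRCm38 (gene positions from GENCODE M21). Epgn (chr5:91027464-91035215), Ereg (chr5:91074622-91093646), Areg (chr5:91139599-91148432) and Btc (chr5:91357261-91402994) span 376 kb, with Btc on the minus strand and the others on the plus strand. The annotation places no other protein-coding gene within this span and 3 non-coding genes. Tgfa (chr6:86195223-86275719) and Egf (chr3:129677565-129755316) lie elsewhere, as do the receptors Egfr (chr11:16752203-16918158), Erbb2 (chr11:98412470-98437716) and Erbb3 (chr10:128567523-128589652). Ereg, Tgfa, Egf, Egfr and Erbb2 overlap annotated genes on the opposite strand. Whether the reads were counted by strand is not given in the sources used here, so reads of these genes and of their overlapping partners may not be separated. On the same strand, Egf overlaps Gm24515 and Erbb3 overlaps Mir6917, which counting by strand would not separate.

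RefSeq start sites (GRCm38.p6) were matched for 7 of the 10 members, and the 250 bases before the start were searched for a few promoter motifs. The windows of Areg and Btc are printed because these ligands of 1 gene cluster both lay above Control in IgG, while in anti-A9 against IgG only Areg passed. The Areg window is chr5:91139349-91139598 on the plus strand and that of Btc is chr5:91402995-91403244 on the minus strand. Both are written 5′ to 3′, ending at the base before the start, with matches to a motif in capitals.
Areg: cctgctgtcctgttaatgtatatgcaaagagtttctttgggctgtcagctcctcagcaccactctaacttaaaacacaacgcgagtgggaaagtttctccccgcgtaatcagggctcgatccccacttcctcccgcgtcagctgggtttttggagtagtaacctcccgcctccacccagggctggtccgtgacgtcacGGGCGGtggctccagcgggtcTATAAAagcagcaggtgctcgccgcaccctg
Btc: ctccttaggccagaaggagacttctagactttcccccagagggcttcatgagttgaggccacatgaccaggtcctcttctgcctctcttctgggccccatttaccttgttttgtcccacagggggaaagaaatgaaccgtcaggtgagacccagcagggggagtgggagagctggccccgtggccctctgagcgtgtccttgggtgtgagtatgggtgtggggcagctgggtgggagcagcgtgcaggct
The Areg window holds a GC box (GGGCGG) that begins 52 bases before the start and a TATA box (TATAAA) that begins 31 bases before it. The Btc window holds neither, and no match to the AP-1 motif (TGANTCA) or the TCF/LEF motif (CTTTGAT) was found in either window on either strand. Among the other windows, that of Epgn holds a TATA box 86 bases before the RefSeq start. The Epgn window ends at chr5:91027516, inside the gene as GENCODE places it (from 91027464), so this TATA box lies nearer to the GENCODE start. The Tgfa window holds GC boxes at 126 and 15 bases, and that of Egfr holds a GC box at 9 bases, while those of Egf and Erbb2 hold none of the motifs. Of all 32851 RefSeq windows of this length, 32.7% hold a GC box, 12.4% a TATA box, 6.75% an AP-1 motif and 3.21% a TCF/LEF motif. A match is a match of letters and shows no binding.

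**Figure D1:**
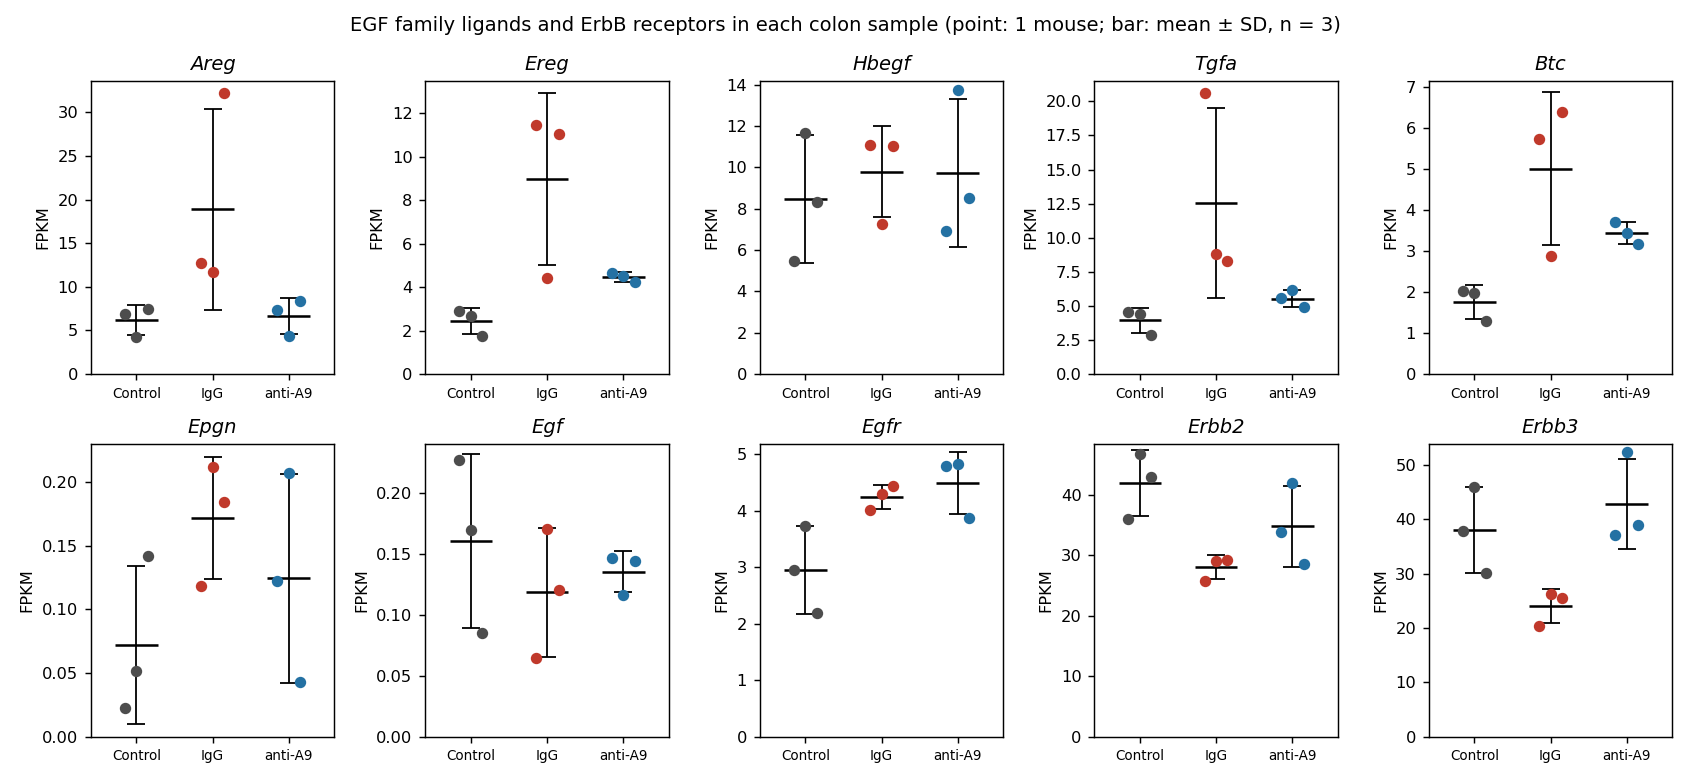
FPKM of each ligand and receptor in every sample, with 1 panel per gene, each with its own linear axis from 0; points are single mice, and bars give the mean ± SD (n = 3). All 3 IgG samples lie above the Control samples for Areg, Ereg, Tgfa, Btc and Egfr, and below them for Erbb2 and Erbb3.

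The first comparison, IgG against Control, asks which of these genes changed with tumour induction. Across all genes, 11.2% passed the test in this comparison, 8.18% higher and 3.01% lower. Of the 10 members, 3 passed and were higher, all of them ligands, and 0 passed and were lower. By the rule of the study (over 2-fold change with an unadjusted p below 0.05), 4 members were higher, against 8.43% of all genes. The members were chosen with earlier results of these data known, so these counts are descriptions. The median log2 fold change was 1.401 over the 7 ligands and -0.57 over the 3 receptors, beside 0.09 over all genes tested.

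Ereg encodes epiregulin, a ligand that binds EGFR and ERBB4. It measured 2.92, 2.67 and 1.76 FPKM in the Control samples and 11.5, 4.40 and 11.05 FPKM in the IgG samples. No IgG sample was as low as any Control sample, with replicate 2 well below the other two. Ereg was thus higher by 1.74 on the log2 scale (standard error 0.36, adjusted p = 0.020 from limma).

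Tgfa encodes transforming growth factor alpha, a ligand of EGFR made by many epithelia. Its values were 4.53, 4.41 and 2.87 FPKM in Control and 20.6, 8.77 and 8.27 FPKM in IgG. The groups did not overlap, and replicate 1 of IgG stood far above the others. Its log2 fold change was 1.54 (standard error 0.35, adjusted p = 0.026 from limma), and without that sample it was 1.12 and still passed (adjusted p = 0.024).

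Btc encodes betacellulin, which binds EGFR and ERBB4. It rose from 2.02, 1.98 and 1.29 FPKM in Control to 5.72, 2.89 and 6.38 FPKM in IgG. Again the groups did not overlap, and replicate 2 was the lowest of the IgG samples, as it was for Ereg. Its log2 fold change was 1.401 (standard error 0.31, adjusted p = 0.026 from limma).

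Areg encodes amphiregulin, an EGFR ligand of injured and inflamed epithelium. It measured 6.87, 4.22 and 7.51 FPKM in Control and 12.7, 11.7 and 32.2 FPKM in IgG. The groups did not overlap, with replicate 3 of IgG far above the others. Its log2 fold change of 1.47 (standard error 0.42, 95% interval 0.52 to 2.42) missed the threshold with an adjusted p of 0.055 from limma, and without replicate 3 it was 1.01 (adjusted p = 0.099).

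The calls of Ereg, Tgfa and Btc rest on few mice. When each sample was left out in turn, Ereg passed 6 of 9 times, Tgfa 6 times and Btc 4 times. Ereg missed the threshold without Control replicate 2, IgG replicate 1 or replicate 3 (adjusted p of 0.058, 0.051 and 0.054). Tgfa missed it without any 1 of the Control samples, and Btc without any 1 of the Control samples or without IgG replicate 1 or 3. When only the 2 groups compared were fitted, none of the 3 ligands passed, with adjusted p-values of 0.071, 0.081 and 0.087. Their log2 fold changes stayed between 1.08 and 2.18 under all settings and omissions.

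The remaining ligands did not pass. Hbegf, which encodes heparin-binding EGF-like growth factor, was the most abundant ligand in Control at 8.47 ± 3.10 FPKM (SD, n = 3) and measured 9.80 ± 2.19 FPKM (SD, n = 3) in IgG. Its 95% interval ran from -0.52 to 1.01 on the log2 scale, so changes within this interval are not excluded. Epgn, which encodes the EGFR ligand epigen, and Egf itself were near the low end of the table. Epgn was 0.0720 ± 0.0623 FPKM in Control and 0.172 ± 0.0479 in IgG (SD, n = 3), and Egf was 0.161 ± 0.0717 and 0.119 ± 0.0531 (SD, n = 3). The samples of the groups overlapped for all 3 of these genes.

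The receptors were arranged differently. Erbb2, the partner receptor, measured 36.0, 46.7 and 42.9 FPKM in Control and 25.8, 29.0 and 29.3 FPKM in IgG. Erbb3 measured 37.9, 46.0 and 30.2 FPKM in Control and 20.4, 26.2 and 25.5 FPKM in IgG. For both genes every IgG sample lay below every Control sample, yet neither passed. The log2 fold change was -0.57 for Erbb2 (standard error 0.17, adjusted p = 0.060 from limma) and -0.65 for Erbb3 (standard error 0.20, adjusted p = 0.069 from limma). Egfr, the receptor of all 7 ligands, was 2.94, 3.73 and 2.18 FPKM in Control and 4.01, 4.29 and 4.43 FPKM in IgG, with no overlap in the opposite direction. Its log2 fold change of 0.54 (standard error 0.22) had an adjusted p of 0.14 from limma. With quantile scaling Erbb2 passed, at -0.65 (adjusted p = 0.041). Groups that do not overlap were common, at 20.7% of all genes in the higher direction and 10.2% in the lower, beside 5 and 2 of the 10 members.

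The receptor and ligand differences stood beside differences in markers of cell types, in a comparison where 8.18% of all genes rose and 3.01% fell. Scaling all samples to 10 general epithelial markers raised the median log2 fold change of all genes by 0.34, to 0.43. Under it the log2 fold change was -0.23 for Erbb2 (adjusted p = 0.51) and -0.31 for Erbb3 (adjusted p = 0.42), while that of Ereg was 2.08 (adjusted p = 0.019), that of Tgfa 1.88 (adjusted p = 0.037) and that of Btc 1.74 (adjusted p = 0.029), and Areg passed at 1.81 (adjusted p = 0.019). The general epithelial marker Epcam was present throughout, at 637 to 786 FPKM in Control and 691 to 890 FPKM in IgG. The sum of the 10 general epithelial markers was 3969 to 5501 FPKM in Control and 2677 to 4927 in IgG, and none of them passed. For Cdx1 (log2 fold change -0.93), Tspan8 (-0.76) and Vil1 (-0.32) every IgG sample lay below every Control sample. The reverse held for 0 of the 10. Of 10 markers of absorptive and goblet cells, 4 fell, namely Car1, Car4, Slc26a3 and Guca2a. The goblet cell markers Muc2, Tff3, Fcgbp, Clca1 and Zg16 did not pass. Of these, Muc2 was 51.6, 398 and 461 FPKM in IgG against 232 to 287 in Control. The sum of the 10 markers was 9320 to 12442 FPKM in Control and 955 to 7798 in IgG. Replicate 1 of IgG, the sample with the highest Tgfa, had the lowest sum. Of 12 markers of stratified squamous epithelium, 9 were tested and 6 rose, with a sum of 2.07 to 4.89 FPKM in Control and 12.8 to 64.6 in IgG, although Trp63, a defining gene of that epithelium, was at most 0.0223 FPKM in any sample. Of 8 neutrophil markers 5 rose, with a sum of 90.4 to 121 FPKM in Control and 71.0 to 428 in IgG. Most of the Control sum was Ly6g, which did not rise (88.8 to 117 FPKM in Control and 26.1 to 96.0 in IgG, adjusted p = 0.33), and the other 7 summed to 1.56 to 3.54 FPKM in Control and 44.9 to 333 FPKM in IgG. Of 8 fibroblast markers 5 rose, with sums of 442 to 517 and 641 to 2131 FPKM. Of 6 adipocyte markers, 5 were tested and 4 fell, with sums of 77.8 to 278 FPKM in Control and 9.92 to 46.3 in IgG. None of the markers of macrophages (8), smooth muscle (8) or lymphocytes (9) passed. The part of these cells in the results on ligands and receptors was not tested.

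**Figure D2:**
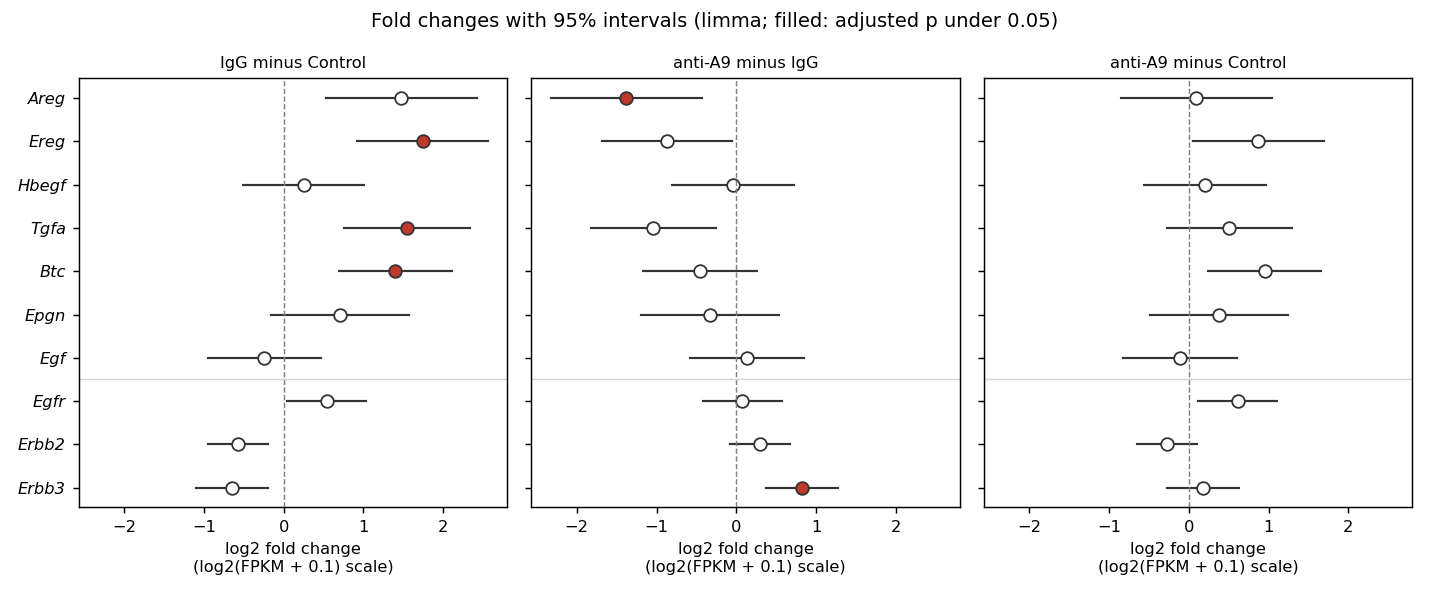
Log2 fold change of each ligand (above the line) and receptor (below it) in the 3 comparisons, with 95% intervals from limma on the log2(FPKM + 0.1) scale; filled points passed with an adjusted p under 0.05. Ereg, Tgfa and Btc are filled in the first comparison, Areg and Erbb3 in the second and none in the third.

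The second comparison, anti-A9 against IgG, asks what differed between tumour-induced mice given either antibody, whose tissue may also have differed in kind. Across all genes, 21.1% passed, 6.72% higher and 14.4% lower. Of the members, 1 receptor passed and was higher and 1 ligand passed and was lower. This is 2 of 10, near the 21.1% of all genes and so no result about the members as a set. By the rule of the study, 2 members were lower, Areg and Tgfa, against 8.38% of all genes. The median log2 fold change was -0.45 over the ligands and 0.29 over the receptors, beside -0.06 over all genes.

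Areg was 7.29, 4.37 and 8.34 FPKM in the anti-A9 samples, against 12.7, 11.7 and 32.2 FPKM in the IgG samples. Every anti-A9 sample was below every IgG sample, and the anti-A9 samples overlapped those of Control. The log2 fold change was -1.38 (standard error 0.42, adjusted p = 0.047 from limma). This call is close to the threshold, and with each sample left out in turn it passed 1 of 9 times, without IgG replicate 2. Without IgG replicate 3 the log2 fold change was -0.92 (adjusted p = 0.10), and over all 9 omissions the adjusted p was 0.036 to 0.15.

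Tgfa was 5.58, 6.13 and 4.89 FPKM in the anti-A9 samples, all below the 8.27 FPKM of the lowest IgG sample. The difference of -1.04 on the log2 scale (standard error 0.35, 95% interval -1.82 to -0.26) missed the threshold with an adjusted p of 0.061 from limma, and without IgG replicate 1 it was -0.62.

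Ereg and Btc, which were higher in IgG than in Control, did not pass between anti-A9 and IgG. Ereg was 4.66, 4.53 and 4.24 FPKM and Btc 3.71, 3.44 and 3.17 FPKM in the anti-A9 samples, a narrow range in both. IgG replicate 2, with 4.40 FPKM of Ereg and 2.89 FPKM of Btc, lay within or below this range. The log2 fold change was -0.87 for Ereg (adjusted p = 0.11 from limma) and -0.45 for Btc (adjusted p = 0.31 from limma, 95% interval -1.17 to 0.26). Without IgG replicate 2, that of Ereg was -1.31 and passed (adjusted p = 0.011), while that of Btc was -0.80 and did not (adjusted p = 0.053). Hbegf, at 6.92, 13.8 and 8.50 FPKM, had a log2 fold change of -0.05, that of Epgn was -0.33 and that of Egf was 0.13, and none of them passed.

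Erbb3 was 37.2, 52.3 and 38.9 FPKM in the anti-A9 samples, against 20.4, 26.2 and 25.5 FPKM in IgG. Each anti-A9 sample was above every IgG sample, and the anti-A9 samples overlapped those of Control. The log2 fold change was 0.82 (standard error 0.20, adjusted p = 0.025 from limma). It passed 4 of 9 times when single samples were omitted, and it missed the threshold without IgG replicate 1 or 3 or without any 1 of the anti-A9 samples, with adjusted p-values of 0.052 to 0.090. Scaled to the epithelial markers it was 0.85, again in the higher direction, with an adjusted p of 0.070.

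Erbb2 measured 33.8, 41.9 and 28.6 FPKM in the anti-A9 samples, which overlapped IgG, and its log2 fold change of 0.29 (95% interval -0.08 to 0.67) did not pass. Egfr was 4.79, 4.82 and 3.86 FPKM, which overlapped IgG, with a log2 fold change of 0.07 (95% interval -0.42 to 0.57). Without overlap, 1 member was higher and 2 were lower, against 18.5% and 28.5% of all genes.

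Marker lists also differed between anti-A9 and IgG, where 14.4% of all genes passed and were lower and 6.72% passed and were higher. All 6 of the squamous markers that passed were lower in anti-A9, with a sum of 3.54 to 5.26 FPKM in the anti-A9 samples. Of the neutrophil markers 4 were lower, with a sum of 91.7 to 169 FPKM, or 6.82 to 19.2 FPKM without Ly6g, which was at 82.1 to 150.2 FPKM and did not pass. Of the 8 fibroblast markers 3 were lower, with a sum of 584 to 767 FPKM. Without overlap 4 of them were lower and 1 was higher, Dcn, at 304 to 373 FPKM against 229 to 294 in IgG. Dcn did not pass. Of the absorptive and goblet cell markers 3 were higher, Car1, Car4 and Slc26a3, and the sum of that list was 5199 to 8744 FPKM. The goblet cell markers Muc2, Tff3, Fcgbp, Clca1 and Zg16 again did not pass. None of the 10 general epithelial markers passed, with a sum of 3266 to 4155 FPKM. Of the smooth muscle markers 2 were higher, with a sum of 2278 to 4136 FPKM against 524 to 3281 in IgG. Of the 9 lymphocyte markers 1 was higher, near the 6.72% of all genes and so no result about the list. The lymphocyte sums were 71.2 to 229 FPKM and 19.7 to 129 in IgG. Cd4 was 14.3 to 23.0 FPKM against 2.21 to 6.08 in IgG. The means of Cd3e, Cd3d and Cd3g were 4.51, 3.94 and 6.79 FPKM against 3.07, 2.90 and 7.09 in IgG. The part of these cells in the differences of Areg and Erbb3 was not tested.

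The third comparison, anti-A9 against Control, asks what was left of the difference from mice without AOM/DSS. With limma, 0 of the 10 members passed, and 0.0131% of all genes did. At an unadjusted p under 0.05 there were 3 members, Ereg, Btc and Egfr, against 16% of all genes. Ereg had a log2 fold change of 0.87 (95% interval 0.05 to 1.69), Btc of 0.95 (0.24 to 1.66) and Egfr of 0.61 (0.12 to 1.11), with adjusted p-values of 0.30 each. For these 3 genes and for Tgfa, at 0.50 (-0.28 to 1.29), all anti-A9 samples were above all Control samples, which also held for 17.3% of all genes. Areg was at 6.67 ± 2.06 FPKM, against 6.20 ± 1.74 in Control (SD, n = 3), with a log2 fold change of 0.09 and a 95% interval of -0.85 to 1.04.

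The share of the excess over Control that was left in the anti-A9 samples can be given for the members whose IgG samples all lay above Control. On the linear scale it was 3.67% ± 16.2 for Areg, 18.6% ± 7.23 for Tgfa, 31.1% ± 3.35 for Ereg and 51.8% ± 8.36 for Btc (SD over the 3 anti-A9 mice, against the group means). Leaving out 1 of the 9 samples at a time moved these shares, to between -4.47% and 12.7% for Areg, 13.2% and 34.9% for Tgfa, 23.0% and 38.4% for Ereg, and 39.1% and 65.9% for Btc. For the receptor Egfr, whose excess in IgG did not pass, the share was 119% ± 42.4, and between 106% and 144% with samples left out. The lowest anti-A9 sample had 70.3%, so whether the Egfr excess shrank cannot be told. The comparisons share their IgG and Control samples, so these shares are descriptions.

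**Figure D3:**
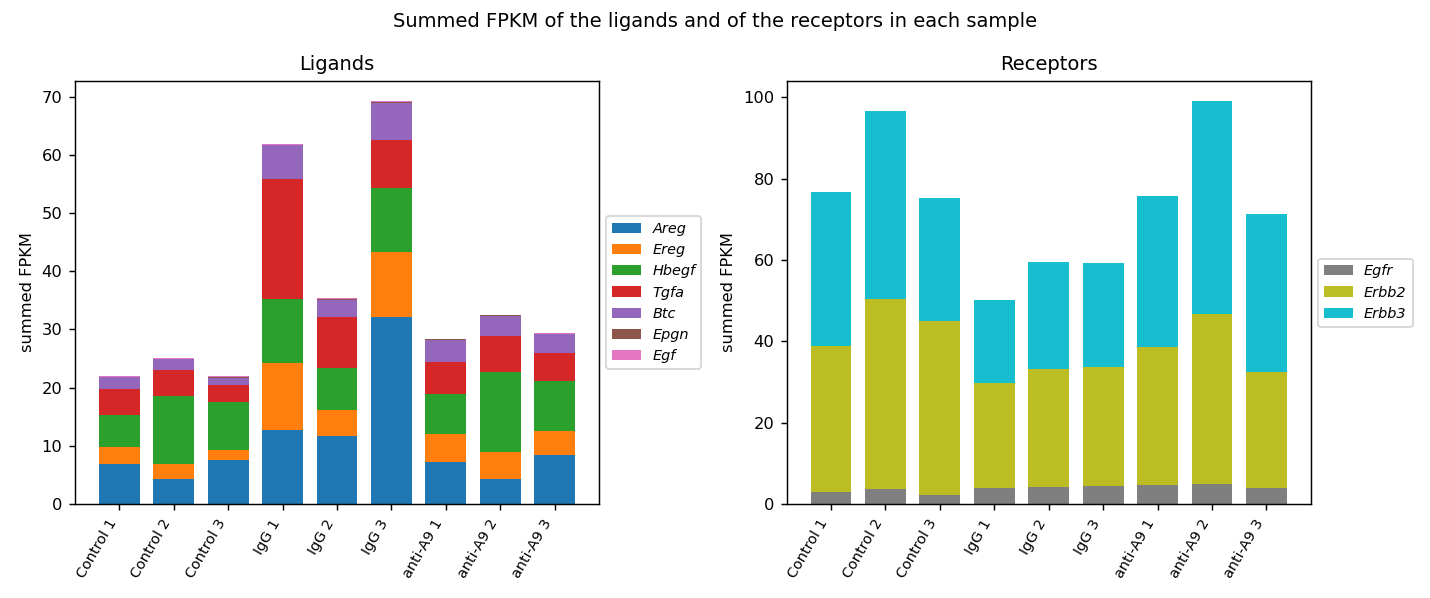
Summed FPKM of the 7 ligands (left) and of the 3 receptors (right) in each of the 9 samples, with each gene as a coloured part of the bar and linear axes from 0. The ligand sum is highest in IgG replicate 3, at 69.2 FPKM, and Egfr is the smallest part of the receptor sum in every sample.

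Summed over the ligands, which FPKM allows because it is scaled to transcript length, the level was 23.1 ± 1.82 FPKM in Control, 55.5 ± 17.7 in IgG and 30.1 ± 2.17 in anti-A9 (SD, n = 3). The receptor sum was 82.9 ± 11.9, 56.3 ± 5.26 and 82.1 ± 14.9 FPKM in the same order. Within the ligand sum, the leading gene of the group mean differed. Hbegf led in Control with 36.3% ± 10.9 and in anti-A9 with 31.9% ± 9.30, whereas Areg led in IgG with 33.4% ± 12.95 and Hbegf took 18.1% ± 2.29 (SD, n = 3). Egfr made up 3.53% ± 0.550 of the receptor sum in Control, 7.56% ± 0.390 in IgG and 5.53% ± 0.738 in anti-A9 (SD, n = 3).

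By mean level, the order in Control was Hbegf, Areg, Tgfa, Ereg, Btc, Egf and Epgn. Neighbours in this order overlapped in their samples, except that Btc at 1.76 FPKM lay clear of Egf at 0.161 FPKM. In IgG the order was Areg, Tgfa, Hbegf, Ereg, Btc, Epgn and Egf, and again only Btc and the next gene did not overlap. In anti-A9 the order was that of Control, with Tgfa, Ereg and Btc each clear of the next. Among the receptors, Erbb2 and Erbb3 overlapped in all 3 groups, at 24.0 to 42.8 FPKM by group mean, and Egfr lay clear below them at 2.95 to 4.49 FPKM.

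The genes of the chromosome 5 cluster can be set beside their neighbours. Mthfd2l, a mitochondrial folate enzyme gene that precedes Epgn, was 1.87 ± 0.223 FPKM in Control, 3.77 ± 0.838 in IgG and 2.22 ± 0.267 in anti-A9 (SD, n = 3). Its log2 fold change was 0.96 in IgG against Control (adjusted p = 0.028 from limma) and -0.72 in anti-A9 against IgG (adjusted p = 0.050 from limma, just under the threshold). Parm1, which follows Btc, did not pass, with log2 fold changes of -0.15 and 0.42 (adjusted p = 0.57 and 0.084 from limma). Within the cluster, Ereg and Btc were the most alike across the 9 samples (Pearson r = 0.98 on the log2 scale), and Areg followed them less closely (r = 0.70 with Ereg and 0.64 with Btc). These correlations describe 9 samples in 3 groups and include the differences between groups.

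Among the 13072 genes with a mean of at least 1 FPKM in at least 1 group, the genes whose log2 levels were most like those of a member over the 9 samples were also listed, by Pearson's r. For Areg these were Il1r2, Psca and Abtb2 (r = 0.97 for each), and for Tgfa Epb41l5, Znrf3 and Sypl (r = 0.996, 0.991 and 0.990). For Ereg they were Wnt5a, Pappa and Btc (r = 0.98 for each), and for Btc Tenm3, Ereg and Ednra (r = 0.98 for each). Hbegf was most like Gjb5 (r = 0.95), followed by Vapb and Dedd2 (r = 0.83 for each). Egfr was most like Stx12, Nid1 and Sav1 (r = 0.97, 0.96 and 0.96), Erbb2 like Zrsr1, Phldb1 and Slc25a29 (r = 0.95, 0.94 and 0.93) and Erbb3 like Fam8a1, Dnmbp and Rxra (r = 0.98, 0.98 and 0.97). These genes were picked as the highest of many correlations, and the samples share their groups.

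The other ErbB genes were mostly low. Of the neuregulins, ligands of ERBB3 and ERBB4, Nrg1 rose from 0.543, 0.289 and 0.317 FPKM in Control to 2.72, 1.12 and 0.787 FPKM in IgG. The rise was 1.63 on the log2 scale (standard error 0.43, adjusted p = 0.044 from limma). This call held in 1 of the 9 omissions of a single sample, without IgG replicate 3, and over the others the adjusted p was 0.052 to 0.14. In anti-A9 Nrg1 was 1.03, 0.755 and 1.11 FPKM and did not pass against either group. Nrg2, at 0.540 ± 0.0755 FPKM in Control and 0.235 ± 0.0737 in IgG (SD, n = 3), did not pass. Nrg3, Nrg4 and Erbb4 were below the filter on low values, with at most 0.0775, 0.0759 and 0.0116 FPKM in any sample.

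Of 10 genes for the release of the ligands, 4 rose and 0 fell in IgG, beside 8.18% and 3.01% of all genes, with a median log2 fold change of 0.39 beside 0.09 for all genes. The pathway lists were chosen with earlier results of these data known, so their counts beside the shares of all genes are descriptions. Adam12, a protease known to cleave the HB-EGF precursor, went from 0.223, 0.0994 and 0.115 FPKM in Control to 4.39, 3.99 and 4.01 FPKM in IgG, and was 0.426, 0.246 and 0.181 FPKM in anti-A9. The IgG samples stood far above the other 6. For Adam12 the log2 fold change was 4.14 (standard error 0.31, adjusted p = 0.00034 from limma) and, between anti-A9 and IgG, -3.51 (adjusted p = 0.0012 from limma), and both passed in each of the 9 omissions of a single sample. Adam8, a protease of leukocytes and tumour cells, rose by 2.16 on the log2 scale. Adam10, which sheds EGF and betacellulin, rose by 0.83 and Rhbdf2, a partner that brings ADAM17 to the cell surface, by 0.81, and these calls held in 3 and 5 of the 9 omissions. Adam17 itself, the main sheddase of amphiregulin and TGF-alpha, was 9.43 ± 1.19 FPKM in Control, 9.91 ± 2.07 in IgG and 10.9 ± 1.07 in anti-A9 (SD, n = 3) and did not pass in any comparison. In anti-A9 against IgG, 4 of the 10 fell and 1 rose, beside 14.4% and 6.72% of all genes. With Adam12, these were Adam8 (-1.28), Rhbdf2 (-0.76) and Rhbdf1 (-0.57), and the gene that rose was Timp3, an inhibitor of ADAM17, at 0.89 on the log2 scale. The Timp3 call held in 2 of the 9 omissions, with adjusted p-values up to 0.14. Without IgG replicate 1 or 3, or without any 1 of the anti-A9 samples, or scaled to the epithelial markers, 1 of the 10 fell and 0 rose. In the first comparison 2 rose without Control replicate 2 or without IgG replicate 1, with quantile scaling, or when only the 2 groups were fitted.

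Of 25 signal transducers, 3 rose and 0 fell in IgG, which is near the 8.18% and 3.01% of all genes and so no result about the list. Without Control replicate 2 or scaled to the epithelial markers there was 1, and with only the 2 groups fitted there were 0. The genes were Akt1 (log2 fold change 0.68), the RAS gene Nras (0.84) and Plcg1 (0.69), which encodes phospholipase C gamma and held in 1 of the 9 omissions. Between anti-A9 and IgG 4 were lower in anti-A9 and 1 was higher, again near the shares of all genes (14.4% and 6.72%). Those lower were Akt1 (-0.56), Akt2 (-0.90), Hras (-0.81) and Pik3r2 (-0.69), a regulatory subunit of PI3K, and the one higher was Pik3r1 (0.83), another such subunit. Without IgG replicate 1 or anti-A9 replicate 3 there was 1 lower, without IgG replicate 3 there were 2, and without anti-A9 replicate 1 or 2 there were 0. Scaled to the epithelial markers 0 were lower and 0 were higher.

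Of 18 feedback inhibitors of the pathway, 2 rose and 0 fell in IgG, near the 8.18% and 3.01% of all genes. When each sample was left out 1 to 3 rose, with 1 in 7 of the 9 omissions. Dusp4, a phosphatase of ERK and JNK kinases, measured 2.72, 1.63 and 1.02 FPKM in Control, 30.5, 11.6 and 15.002 FPKM in IgG and 6.36, 3.60 and 4.48 FPKM in anti-A9. No 2 of its groups overlapped. Against Control it rose in IgG by 3.32 on the log2 scale (standard error 0.43, adjusted p = 0.0031 from limma), against IgG it fell in anti-A9 by 1.88 (adjusted p = 0.022 from limma), and its log2 fold change of 1.44 in anti-A9 against Control did not pass (adjusted p = 0.30 from limma). Rnf41, a ubiquitin ligase known to act on ERBB3, had a log2 fold change of 0.58 that passed (adjusted p = 0.041 from limma) but held in only 1 of the 9 omissions, without IgG replicate 2. Between anti-A9 and IgG Cbl, the ubiquitin ligase of activated EGFR, was higher by 1.29 in anti-A9, so that 1 of the 18 was higher and 1 lower, at or below the shares of all genes (6.72% and 14.4%). It was 17.2, 15.7 and 14.9 FPKM there and 7.43, 8.25 and 4.32 FPKM in IgG. Without any 1 of the anti-A9 samples neither Dusp4 nor Cbl passed in this comparison, Dusp4 was also lost without IgG replicate 1 and Cbl without IgG replicate 3, and neither passed when scaled to the epithelial markers.

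Of 12 genes that respond to ERK signalling, 6 rose and 0 fell in IgG, beside 8.18% and 3.01% of all genes, with a median log2 fold change of 1.29 beside 0.09 for all genes. This list too was chosen with earlier results of these data known, so its counts are descriptions. Phlda1 measured 14.3, 13.6 and 13.6 FPKM in Control and 235, 67.2 and 97.0 FPKM in IgG, a log2 fold change of 3.05 (adjusted p = 0.0023 from limma). Fosl1, an AP-1 transcription factor, rose from 0.0725 ± 0.0452 to 1.92 ± 0.596 FPKM (SD, n = 3), or by 3.54 on the log2 scale (adjusted p = 0.00069 from limma). Etv5, an ETS transcription factor, rose by 2.85, the stress-response gene Ier3 by 2.70, Plaur, the urokinase receptor, by 2.19 and Myc by 1.45 on the log2 scale. The count was 6 to 8 when each sample was left out in turn. Of the 12, Fos (-0.50) and Etv1 (-1.13) were lower in IgG without passing, and Egr1, Junb, Ccnd1 and Etv4 were higher without passing.

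In anti-A9 against IgG, 7 of the 12 fell and 1 rose, beside 14.4% and 6.72% of all genes, with a median log2 fold change of -1.21 beside -0.06 for all genes. Phlda1 was 16.9, 15.3 and 14.6 FPKM in the anti-A9 samples, a log2 fold change of -2.88 (adjusted p = 0.0044 from limma). Fosl1 fell by 2.84, Ier3 by 2.53, Etv5 by 2.30, Plaur by 1.42, Myc by 1.24 and Junb by 1.18 on the log2 scale. Fos (0.61), Egr1 (-0.57), Ccnd1 (-0.50) and Etv4 (-0.20) did not pass. The gene that rose was Etv1, at 1.10 ± 0.0276 FPKM against 0.305 ± 0.174 (SD, n = 3), and this call held in 4 of the 9 omissions. Without anti-A9 replicate 2 the number that fell was 3, and over the other omissions it was 5 to 7. Many of these genes also respond to other signals than ErbB, and ErbB activity was not measured in these files. Against Control, limma called 0 genes of the 5 pathway lists in the anti-A9 samples, where at an unadjusted p under 0.05 there were 4 of the ligand release genes, 6 transducers, 6 feedback inhibitors, 1 neuregulin and 0 ERK-responsive genes, beside 16% of all genes.

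**Figure D4:**
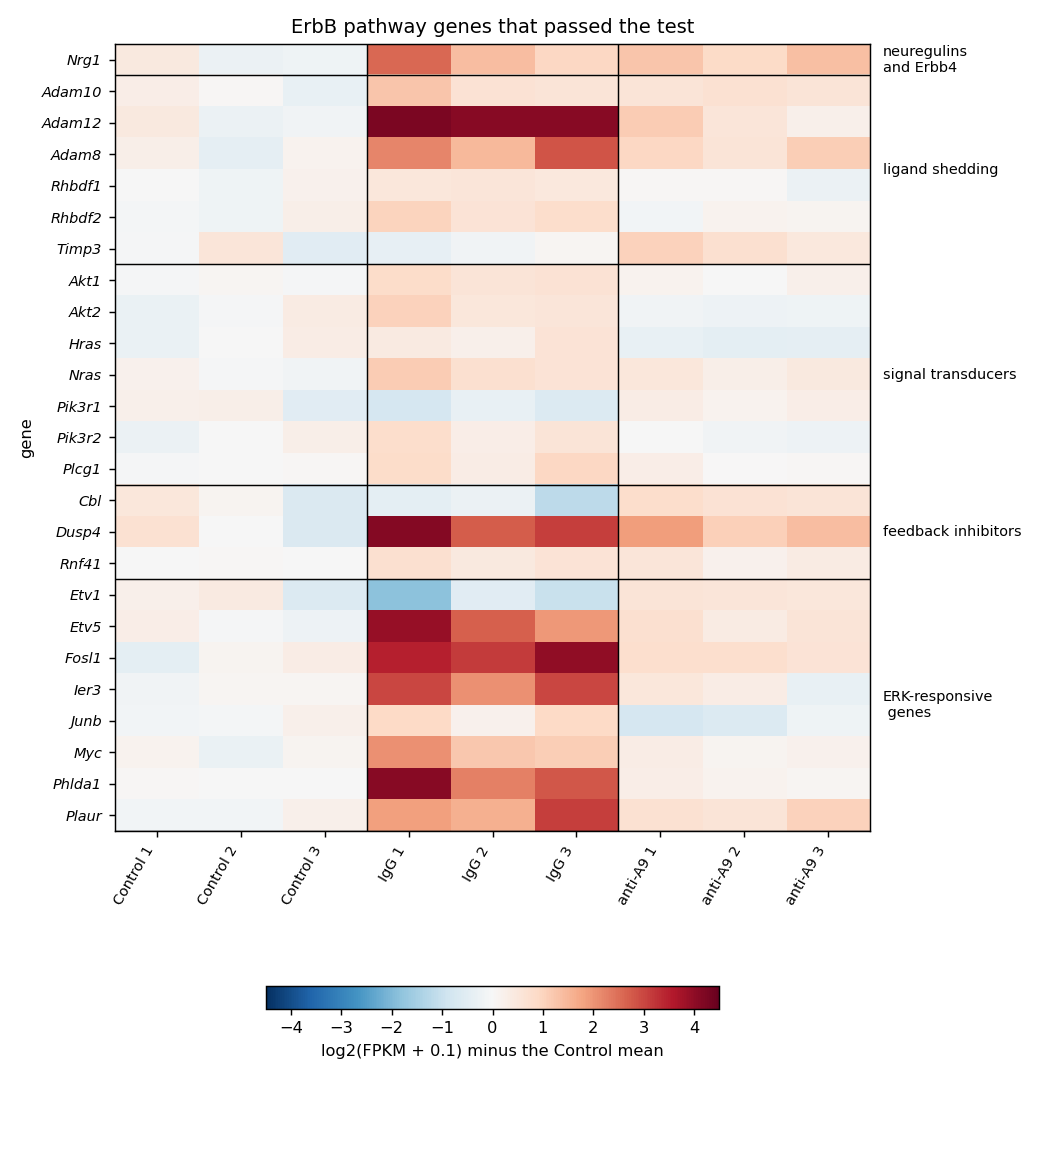
Log2(FPKM + 0.1) of the 25 pathway genes that passed in either of the first 2 comparisons, in each of the 9 samples, as the difference from the Control mean (red higher, blue lower), grouped by role. Averaged over the 3 IgG samples, Adam12, Dusp4, Fosl1, Etv5, Phlda1 and Ier3 lie furthest above the Control mean, and Etv1, Cbl and Pik3r1 are pale to blue there.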

How the data were processed

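Total RNA from the colon of 9 mice was sequenced. The authors deposited 1 table per mouse with a decimal value for each of 21544 gene symbol rows. The deposited values were read as FPKM from their form, since the unit is stated nowhere; the authors' notes name TopHat, Cufflinks, HTSeq and DESeq and the build GRCm38, without versions or roles. Depth is unknown, so no counting error is given, and precision comes from the 3 mice per group. Rows repeating a symbol (46) were summed. Groups came from the sample labels. Values were analyzed as log2(FPKM + 0.1), without rescaling, with limma 3.58.1 in R 4.3.3 (all 9 samples, intensity trend, 8.87 degrees of freedom, Benjamini-Hochberg adjustment over 15278 genes), and the code was tested on simulated data. The authors' DESeq test needs counts and was not repeated. Tables and figures were made with pandas 2.3.3, numpy 2.4.6 and matplotlib 3.10.9 in Python 3.11.15.

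The members and the gene lists were chosen with earlier results of these data known. Named were all members, pathway genes with an adjusted p under 0.05 in either of the first 2 comparisons, the neuregulins and Erbb4, and the 3 genes most correlated with each member of at least 1 FPKM in a group. Adam17, Mthfd2l, Parm1, Fos, Egr1, Ccnd1 and Etv4 were added after their values were seen. Alternatives were other pseudocounts, filters, scalings and fits, the replicate block and leaving out each sample.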

Additional observations from a re-analysis of the deposited data

How the results depend on the processing

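In IgG against Control, 3 members passed; 0 did when only the 2 groups were fitted, 5 with the replicate block, 4 by the study's rule, and 0 to 4 when each sample was left out. Between anti-A9 and IgG 2 passed; 1 did without the low-value filter, without the trend, with the 2 groups only, and with median-of-ratios or quantile scaling, 0 scaled to epithelial markers, 3 with the replicate block, and 0 to 3 with samples left out. Against Control the anti-A9 count was 0 throughout.

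Whether the replicate numbers mark a pairing cannot be decided here, because the deviations are taken from group means of 3 samples. Samples with the same number correlated in their deviations at 0.154, -0.187 and 0.091 between IgG and Control. Between anti-A9 and IgG the values were 0.123, 0.103 and -0.049, and between anti-A9 and Control -0.134, 0.249 and 0.112. Samples with different numbers correlated at -0.267 to 0.19. Under the block, Areg (adjusted p = 0.016) and Erbb3 (0.042) passed in IgG against Control, and Tgfa (0.042) passed between anti-A9 and IgG.

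Directions turned only for small differences that did not pass, and the cause was not tested. Scaled to epithelial markers, Egf was at 0.10 in IgG and at 0.25 in anti-A9 against Control, and Erbb2 at 0.0853 in the latter. Between anti-A9 and IgG Hbegf was at 0.0339 with median-of-ratios and at 0.0345 with quantile scaling. With samples left out, Hbegf was at -0.0323 to 0.51, -0.32 to 0.17 and -0.0774 to 0.46 in the 3 comparisons, Egf at -0.0560 to 0.30 between anti-A9 and IgG and -0.34 to 0.0749 for anti-A9 against Control, and Areg at -0.16 to 0.37 there.

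Among all genes that passed, 73.1% were higher in IgG than in Control (60.01% with quantile scaling, 86.1% scaled to epithelial markers) and 31.9% were higher in anti-A9 than in IgG (44.9% and 44.8%). Quantile scaling moved the median of all genes by -0.12 and median-of-ratios scaling by -0.10 in the first comparison. With all genes kept, 17621 were tested. Epgn and Egf could not be tested with a minimum mean of 1 FPKM.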
